A study of Rattus norvegicus with 6 samples.

Results

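The rat major histocompatibility complex (MHC), called RT1, was examined in hippocampal RNA of rats exposed to intense noise and of unexposed rats. The members were the 43 transcript clusters of the array whose gene symbols all begin with RT1-, together with the clusters of 6 accessory genes (B2m, Tap1, Tap2, Tapbp, Cd74 and Ciita). These 49 clusters were taken from 29489 on the array, whatever their values. The noise group was exposed to white noise of 2 to 20 kHz at 115 dB SPL for 4 hours on each of 3 days, while the control group stayed in a like chamber without that noise. All animals were weanling female Sprague-Dawley rats (strain label SD) with no genetic change stated, and both groups had a hearing test under anaesthesia before the tissue was taken from around the dorsal CA3 field. Each group had 3 arrays, here called noise 2, 3 and 4 and control 1, 2 and 6 after their labels, and each array carried RNA pooled from a pair of rats, so replicate error here is the variation among pools. Values are log2 signals from Affymetrix Rat Gene 2.0 ST arrays. Such an array summarizes several short probes into a transcript cluster, which mostly stands for a gene, and the median signal was 5.05 on all 6 arrays. Across clusters, Pearson's r for the 15 pairs of arrays was 0.981 to 0.990.

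MHC class I molecules are a heavy chain paired with beta-2 microglobulin, and they display peptides from inside the cell to CD8 T cells and natural killer cells. Class II molecules are pairs of alpha and beta chains that display peptides from engulfed material to CD4 T cells, mainly on macrophages, microglia, dendritic cells and B cells. In the rat, RT1-A genes encode the classical class I (class Ia) heavy chains, and the RT1-CE, RT1-M, RT1-N, RT1-O, RT1-S and RT1-T families lie in class Ib regions and hold many close copies. In the brain, class I is low in resting tissue and is inducible by interferons, and neurons have been shown to make some class I.

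The start regions of selected genes are shown with regulatory motifs of MHC genes, some of which occur in both class I and class II genes. RefSeq windows of 300 bases (250 before and 50 after the annotated start, assembly GRCr8) were found for 42 of 51 member symbols. The motif letters searched, on both strands, were GGGGATTCCCC (enhancer A, bound by NF-kappaB), TTTCACTTCT (an interferon response element as it stands in class I genes), CCAAT (the Y box, bound by NF-Y) and TGACG (the CREB-type site of the X2 box). The letters of both class I motifs were read from the RT1-A2 window, so their frequency in class I genes is a description. Capitals in the sequences mark matches; ATTGG and CGTCA are matches on the other strand, and TGACGTCA is a pair of overlapping matches. RT1-A2 stands for the class I cluster of the largest change, and RT1-CE5 and RT1-T18 for the other class I clusters with small p-values. RT1-Ba is shown as a class II gene, though it was the only class II window with TGACG. B2m is the shared light chain. RT1-A2 lies on the plus strand at chr20:4872621-4872920, RT1-CE5 on the minus strand at chr20:3484041-3484340, RT1-T18 on the plus strand at chr20:2610028-2610327, RT1-Ba on the plus strand at chr20:4576807-4577106 and B2m on the plus strand at chr3:129549080-129549379.
RT1-A2: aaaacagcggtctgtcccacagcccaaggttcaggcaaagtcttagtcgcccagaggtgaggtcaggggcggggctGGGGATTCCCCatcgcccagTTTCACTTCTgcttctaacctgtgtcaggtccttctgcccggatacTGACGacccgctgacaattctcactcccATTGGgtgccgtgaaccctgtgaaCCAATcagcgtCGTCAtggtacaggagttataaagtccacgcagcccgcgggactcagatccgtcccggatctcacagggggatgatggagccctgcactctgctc
RT1-CE5: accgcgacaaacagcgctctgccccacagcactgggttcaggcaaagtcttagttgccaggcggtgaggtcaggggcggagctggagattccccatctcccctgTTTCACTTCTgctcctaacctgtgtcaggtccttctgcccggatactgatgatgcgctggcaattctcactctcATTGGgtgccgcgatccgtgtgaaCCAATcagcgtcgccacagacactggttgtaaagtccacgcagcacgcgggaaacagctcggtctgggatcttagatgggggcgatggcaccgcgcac
RT1-T18: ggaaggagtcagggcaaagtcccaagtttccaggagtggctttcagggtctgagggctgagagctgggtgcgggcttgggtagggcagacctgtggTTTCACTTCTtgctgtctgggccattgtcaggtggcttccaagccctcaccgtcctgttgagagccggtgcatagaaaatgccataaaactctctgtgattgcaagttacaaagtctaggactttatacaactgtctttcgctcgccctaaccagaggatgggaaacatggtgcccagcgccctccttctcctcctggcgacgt
RT1-Ba: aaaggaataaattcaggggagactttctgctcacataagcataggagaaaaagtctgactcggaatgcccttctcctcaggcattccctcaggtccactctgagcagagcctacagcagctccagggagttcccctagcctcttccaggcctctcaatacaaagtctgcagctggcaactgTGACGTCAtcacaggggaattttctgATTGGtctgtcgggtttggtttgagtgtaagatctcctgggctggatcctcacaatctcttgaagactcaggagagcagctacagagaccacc
B2m: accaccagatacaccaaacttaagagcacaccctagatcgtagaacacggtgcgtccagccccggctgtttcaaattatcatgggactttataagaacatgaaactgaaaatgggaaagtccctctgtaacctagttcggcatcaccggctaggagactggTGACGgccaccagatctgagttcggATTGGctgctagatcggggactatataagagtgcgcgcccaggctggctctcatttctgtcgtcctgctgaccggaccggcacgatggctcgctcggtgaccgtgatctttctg

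Of 28 class I windows, 7 held GGGGATTCCCC and 10 held TTTCACTTCT, against 21 (0.0627%) and 63 (0.188%) of the 33469 promoters of the whole RefSeq table. All these class I windows were of RT1-A and RT1-CE genes, apart from RT1-T18 with TTTCACTTCT. The windows of the other class I families held neither. Neither motif was found in the 9 class II windows or the 5 accessory windows. Only exact matches to the RT1-A2 letters were counted, so variant forms of these elements in other windows would be missed. CCAAT was in all 9 class II windows and in 20 of the 28 class I windows, against 37.5% of all promoters. TGACG was in 9 class I windows and 1 class II window, the printed RT1-Ba, against 21.2% of all promoters. The windows of RT1-A2 and RT1-CE5 were 84.2% identical over their aligned bases, those of RT1-A1 and RT1-A2 92.4%, and those of RT1-CE4 and RT1-CE5 85.7%. RT1-T18 stood further off, with 61.8% to 69.4% identity to the RT1-A and RT1-CE windows compared with it. On the array, related genes can share probes, and 6 of the 43 RT1 clusters carried several symbols while 37 carried 1. The similarity of start windows does not measure this, and probe sequences were not compared.

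No RT1 or accessory cluster passed the thresholds of the study in either direction: a fold change of 1.5 or more together with an unadjusted p no higher than 0.05, here from limma, a linear model that shares variance among clusters. Over all clusters, 0.580% were higher and 0.882% were lower in the noise group by that rule. By the unadjusted p alone, 3 of 49 members were higher (6.12%, against 5.03% of all clusters) and 0 were lower (against 5.10%). None had an adjusted p of at most 0.05 (0.0102% of all clusters did), and the smallest adjusted p among members was 0.36. The groups did not overlap for 4 members that were higher in the noise group (8.16%, against 8.45% of all clusters) and for 1 that was lower (2.04%, against 8.06%). These shares stand near or below those of the whole array.

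The median log2 fold change was 0.02 over the 49 members and 0.01 over all clusters, and members ranged between -0.32 and 0.46. Changes were positive for 28 members and negative for 21 (51.3% of all clusters were positive). For 31 members (63.3%, against 75.4% of all clusters) the 95% interval of the change lay within 1.5-fold on both sides, which is 0.58 on the log2 scale. The other 18 intervals reached past that size, so with 3 arrays per group these data do not bound the change of those genes to less than 1.5-fold. No detection calls were used and no cluster was filtered out; 33 members, 31 of them RT1 clusters, had means below the array median (50.1% of all clusters), where background signal can hold a large share. In whole tissue, fewer cells of a type and less RNA per cell cannot be told apart.

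**Figure D1:**
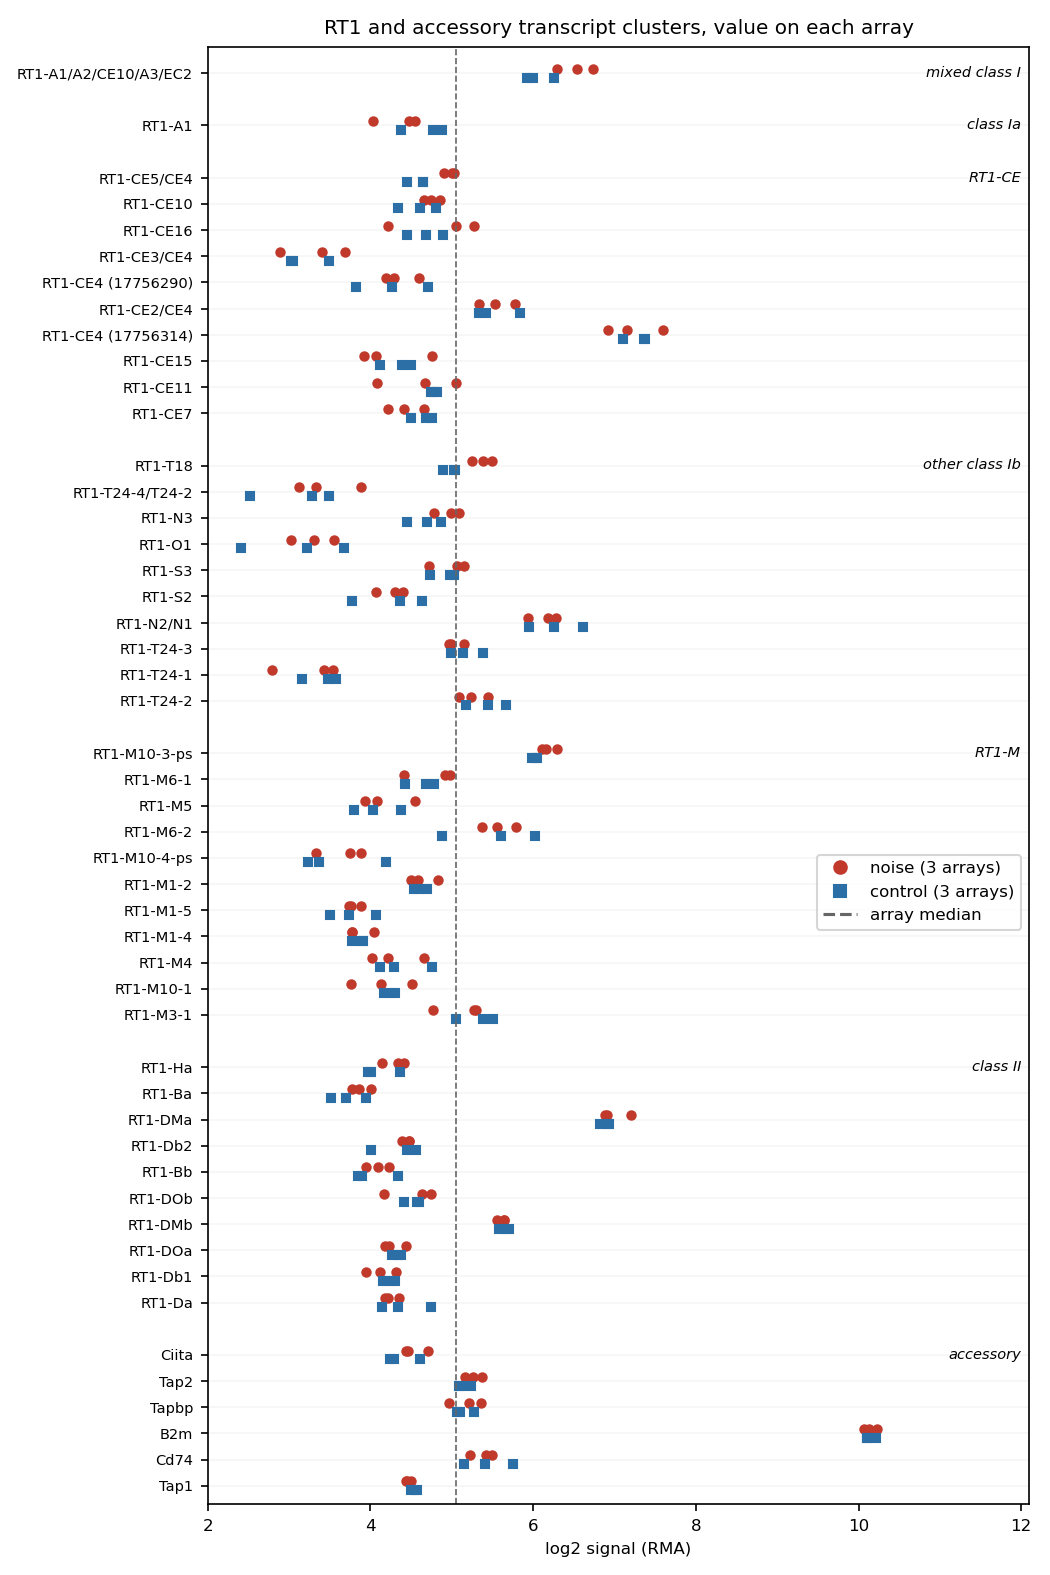
Log2 signal of the 49 clusters on each noise array (red circles) and control array (blue squares), grouped by class and ordered by change; the dashed line is the array median of 5.05. Most RT1 clusters lie left of the line with overlapping groups, and B2m stands apart at about 10.1 in both groups.

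The class I heavy chain cluster with the largest change carries 5 symbols, RT1-A1, RT1-A2, RT1-CE10, RT1-A3 and RT1-EC2, and so reads classical and class Ib copies together. Its log2 signal was 6.54, 6.73 and 6.30 on noise arrays 2, 3 and 4, against 6.26, 5.93 and 6.0 on control arrays 1, 2 and 6. All noise arrays were above all control arrays, though noise 4 and control 1 were close. The cluster averaged 6.52 ± 0.22 in the noise group and 6.06 ± 0.17 in the control group (SD, n = 3 each), a 1.38-fold difference (log2 0.46, SE 0.14; adjusted p = 0.39 from limma).

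RT1-CE5/CE4, a cluster shared by a pair of class Ib copies, had the smallest p of the members. It was at 4.90, 5.0 and 5.03 in the noise group, against 4.46, 4.64 and 4.65 in the control group. The groups were well apart, with array SDs of 0.07 and 0.11, but the signal was below the array median. The log2 difference was 0.39 (SE 0.10; adjusted p = 0.36 from limma).

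RT1-T18, a class Ib gene whose RefSeq synonyms include the mouse thymus leukemia antigen gene Tla, was at 5.38, 5.49 and 5.25 in the noise group, against 5.04, 5.03 and 4.90 in the control group. Every noise array again lay above every control array. The log2 difference was 0.39 (SE 0.10; adjusted p = 0.36 from limma). RT1-M10-3-ps, listed as a pseudogene by its symbol, was the other cluster whose noise arrays were all higher, at 6.11, 6.16 and 6.29 against 5.99, 6.03 and 6.05 in the control group; its difference of 0.17 missed the unadjusted threshold (adjusted p = 0.58 from limma). With 3 arrays per group, the exact permutation p (two-sided) was 0.1 for each of these 4 clusters, the smallest that the design allows.

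Control arrays 1 and 2 carried the highest levels of choroid plexus genes, described with the cell type lists below, and the 3 clusters were refitted without them. The 5-symbol cluster then had a log2 difference of 0.52 and RT1-T18 of 0.48, both past the unadjusted threshold. RT1-CE5/CE4 had 0.33, against 0.39 with all arrays, and was no longer past it. Only control 6 then stood for the control group, and it was assumed to vary like the noise arrays.

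Clusters that share a symbol did not all have differences of the same sign. RT1-A1 has a second cluster of its own, which was at 4.54, 4.04 and 4.47 in the noise group, against 4.77, 4.88 and 4.38 in the control group. Its log2 difference of -0.32 was the most negative of the members (adjusted p = 0.57 from limma), opposite in sign to the 0.46 of the 5-symbol cluster. RT1-T24-2 was likewise named by a pair of clusters, with log2 differences of 0.35 and -0.17. Whether clusters of the same symbol differed from each other in their change was not tested.

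RT1-CE4 was named by 5 clusters. Besides the 0.39 of RT1-CE5/CE4, their log2 differences were 0.14 for RT1-CE3/CE4, 0.10 for cluster 17756290, 0.02 for RT1-CE2/CE4 and -0.06 for cluster 17756314. The last is the brightest RT1 cluster, at 7.15, 6.92 and 7.59 in the noise group against 7.37, 7.37 and 7.10 in the control group. Noise 4 was the highest and noise 3 the lowest of its 6 arrays, so the groups overlapped across the whole range. RT1-CE2/CE4 was at 5.78, 5.53 and 5.34 in the noise group against 5.42, 5.84 and 5.33 in the control group, again with full overlap. None of these 4 clusters passed the unadjusted threshold.

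**Figure D2:**
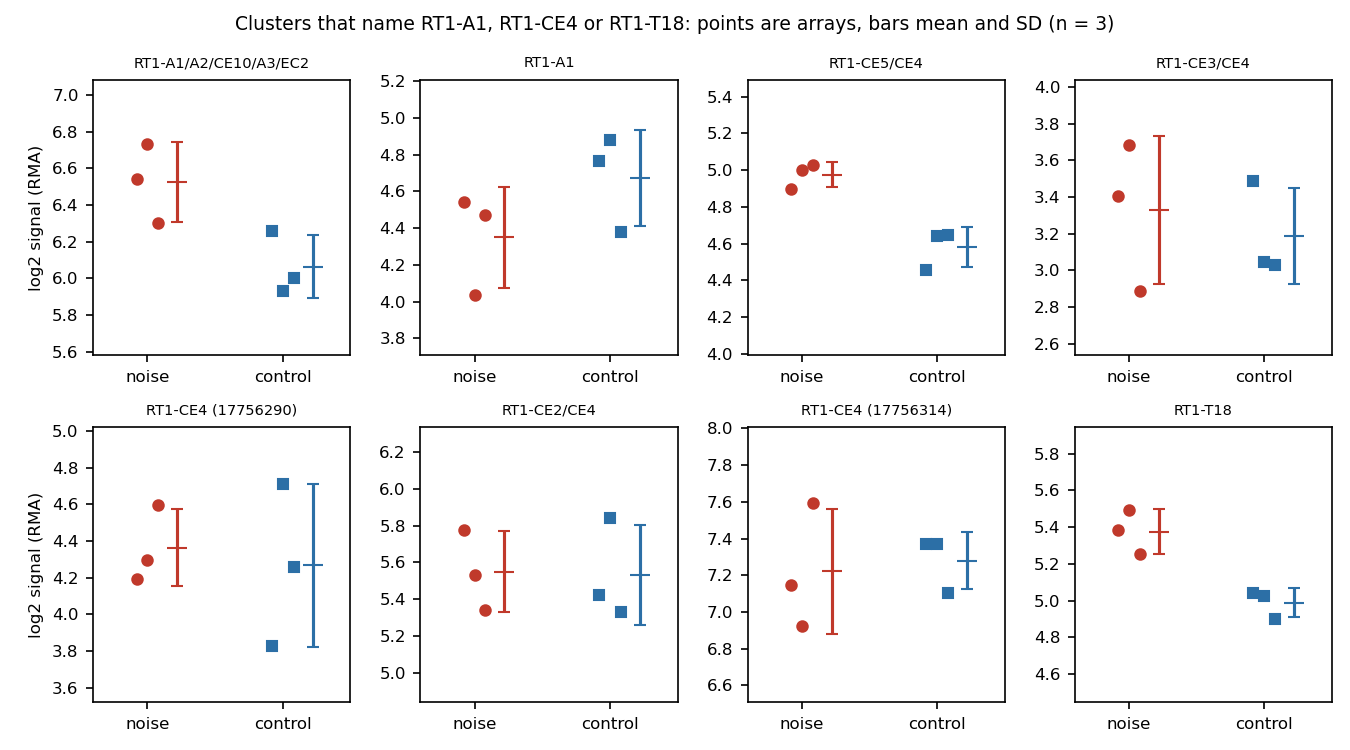
Log2 signal of the clusters that name RT1-A1, RT1-CE4 or RT1-T18, with noise arrays left of control arrays in each panel; points are arrays and bars are the mean and SD (n = 3). The 5-symbol cluster, RT1-CE5/CE4 and RT1-T18 show groups that do not overlap, while the other clusters of the same symbols overlap; each panel has its own range of values.

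Across the 10 RT1-CE clusters the median log2 difference was 0.06, between -0.22 and 0.39, with 6 positive and 4 negative. RT1-CE7 had the lowest, at 4.22, 4.66 and 4.41 in the noise group against 4.50, 4.69 and 4.75 in the control group (adjusted p = 0.61 from limma). RT1-CE16 was at 5.05, 5.28 and 4.22 in the noise group against 4.68, 4.90 and 4.46 in the control group. Its noise arrays spanned more than its control arrays, and the difference of 0.17 had a 95% interval between -0.46 and 0.79. Only 4 of the 10 RT1-CE intervals lay within 1.5-fold.

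The 10 clusters of the other class Ib families had a median log2 difference of 0.03, between -0.17 and 0.39, with 5 positive and 5 negative. RT1-T24-4/T24-2 had 0.35 with overlapping groups. By p, the cluster after RT1-T18 was RT1-N3, at 4.79, 4.99 and 5.09 in the noise group against 4.69, 4.87 and 4.44 in the control group (log2 0.29, adjusted p = 0.53 from limma). Only noise 2 fell within the control range. RT1-N2/N1, the brightest of these clusters, was at 6.28, 6.19 and 5.94 in the noise group against 5.94, 6.25 and 6.61 in the control group, a difference of -0.13 with overlapping groups. RT1-S3, which RefSeq pairs with mouse H2-T23 (the Qa-1 molecule, which in the mouse is read by CD94/NKG2 receptors of natural killer cells), had a difference of 0.06.

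The 11 RT1-M clusters had a median log2 difference of 0.02, between -0.20 and 0.17. RT1-M3-1, whose mouse counterpart H2-M3 presents N-formylated peptides, was at 5.30, 4.77 and 5.27 in the noise group, against 5.38, 5.51 and 5.06 in the control group. The groups overlapped, and its difference of -0.20 was the lowest of the family (adjusted p = 0.73 from limma). RT1-M6-2 was at 5.79, 5.37 and 5.56 in the noise group against 4.88, 6.02 and 5.61 in the control group, where control arrays 1 and 2 held the lowest and the highest of the 6 values.

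No class II chain or editor subunit passed the thresholds or the unadjusted p alone. Their median log2 difference was 0.03, between -0.16 and 0.19, with 5 positive and 5 negative, and all 10 intervals lay within 1.5-fold. RT1-DMa and RT1-DMb encode the peptide editor that loads class II molecules, and they were the brightest class II clusters. RT1-DMa was at 6.91, 6.89 and 7.20 in the noise group against 6.82, 6.92 and 6.93 in the control group (log2 0.11, 95% interval -0.16 to 0.38), where noise 4 alone stood above the control range. RT1-DMb was at 5.65, 5.56 and 5.64 in the noise group against 5.58, 5.70 and 5.66 in the control group (log2 -0.03, interval -0.24 to 0.18). RT1-DOa and RT1-DOb, the subunits of the inhibitor of that editor, had differences of -0.04 and -0.01.

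The peptide-presenting class II chains were all below the array median. RT1-Da, an alpha chain related to human HLA-DR, was at 4.17, 4.36 and 4.21 in the noise group against 4.34, 4.74 and 4.15 in the control group. RT1-Ba, an alpha chain related to HLA-DQ, was at 3.85, 4.01 and 3.78 in the noise group against 3.52, 3.71 and 3.94 in the control group. Their differences of -0.16 and 0.16 were opposite in sign, and the groups overlapped in both. The beta chains RT1-Db1, RT1-Db2 and RT1-Bb had -0.11, 0.11 and 0.06, and RT1-Ha, related to the HLA-DP alpha chain, had 0.19.

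Ciita, the coactivator that switches on class II genes, was at 4.71, 4.47 and 4.43 in the noise group against 4.24, 4.61 and 4.30 in the control group (log2 0.15, adjusted p = 0.73 from limma). Cd74, the invariant chain that guides class II molecules through the cell, was at 5.23, 5.42 and 5.50 in the noise group against 5.76, 5.41 and 5.15 in the control group. The control arrays held both its highest and its lowest value, and its difference of -0.06 had an interval between -0.44 and 0.33.

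B2m, the light chain of every class I molecule, had the brightest signal of the members and was at 10.07, 10.23 and 10.13 in the noise group against 10.21, 10.10 and 10.11 in the control group. The group means were both 10.14, and the 95% interval of the difference lay between -0.22 and 0.22. Tap1 and Tap2 form the pump that carries peptides to class I molecules. Tap1 was at 4.44, 4.50 and 4.45 in the noise group against 4.58, 4.50 and 4.54 in the control group. All its noise arrays were lower, with noise 3 and control 2 equal after rounding, and the difference of -0.08 was small (adjusted p = 0.79 from limma). Tap2 was at 5.37, 5.16 and 5.26 in the noise group against 5.09, 5.11 and 5.23 in the control group, a difference of 0.12. Tapbp (tapasin), which holds class I molecules at that pump, had a difference of 0.03. All 6 accessory intervals lay within 1.5-fold.

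By RefSeq gene order, all 43 RT1 clusters and Tap1, Tap2 and Tapbp lie on chromosome 20, with Cd74 on 18, Ciita on 10 and B2m on 3. The 3 clusters with small p-values were not neighbours: RT1-T18 opens the class Ib region after the RT1-M genes, RT1-CE5 lies within the RT1-CE genes, and the RT1-A genes lie beyond class II next to Tapbp. Next to RT1-CE5/CE4 in that order were RT1-CE10 at 0.17 and an RT1-CE4 cluster at 0.10.

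**Figure D3:**
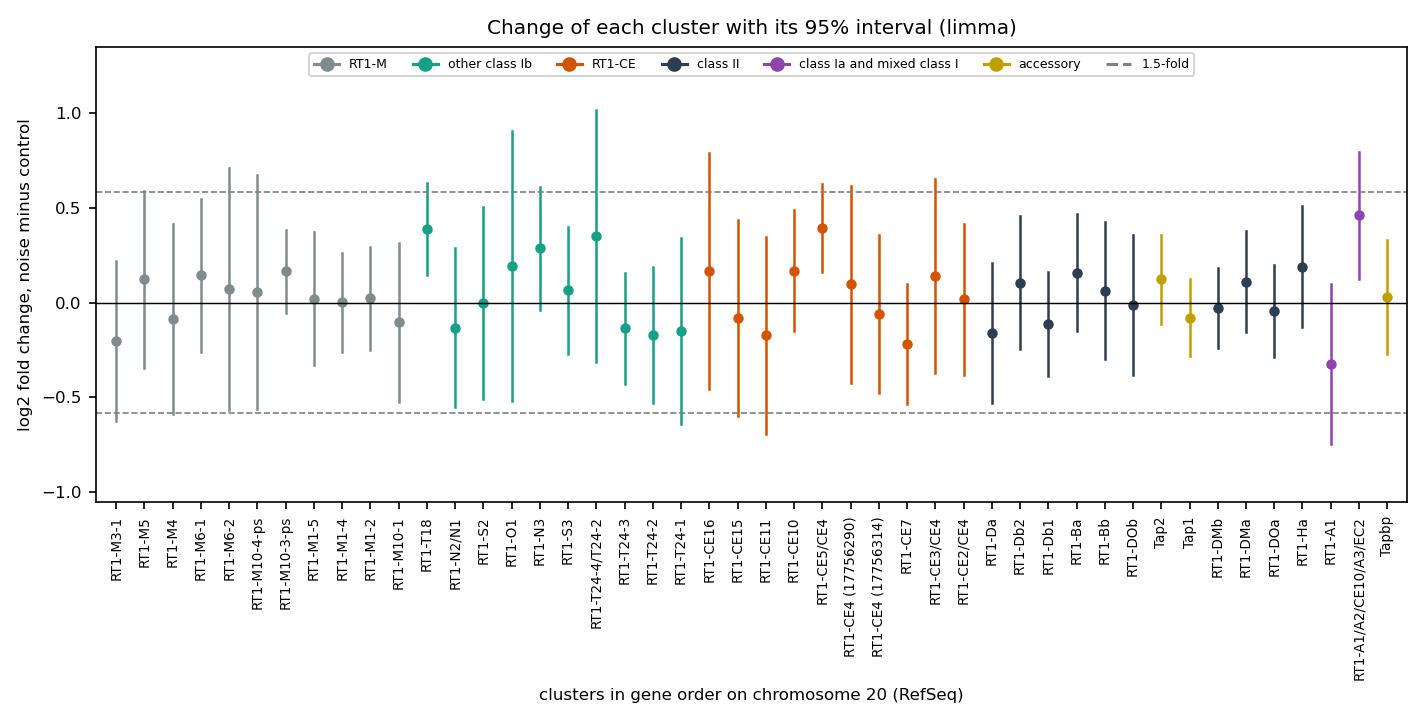
Log2 fold change (noise minus control) of the 46 clusters on chromosome 20 in RefSeq gene order, with 95% limma intervals; colours give the class and dashed lines mark 1.5-fold in both directions. The intervals of the 5-symbol class I cluster, RT1-CE5/CE4 and RT1-T18 exclude 0, no point passes 1.5-fold, and all class II intervals lie between the dashed lines.

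RT1 clusters were less even between arrays of a group than the array as a whole. Their median SD within groups was 0.224, against 0.157 over all clusters and 0.20 over the 14786 clusters below the array median. Of the 43, 12 (27.9%) lay above the 90th percentile of all clusters, an SD of 0.322; among the 31 dim ones, 4 (12.9%) lay above the 90th percentile of dim clusters, 0.371. No class II cluster was among the 12, which comprised 5 RT1-CE, 4 other class Ib and 3 RT1-M clusters.

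The 5 most variable were RT1-O1 (SD 0.490), RT1-T24-4/T24-2 (0.455), RT1-M6-2 (0.437), RT1-CE16 (0.425) and RT1-M10-4-ps (0.421). RT1-O1 was at 3.02, 3.31 and 3.55 in the noise group and at 2.41, 3.22 and 3.68 in the control group. RT1-T24-4/T24-2 was at 3.33, 3.12 and 3.89 in the noise group and at 3.49, 2.52 and 3.28 in the control group. A low control array stood out in each, control 1 for RT1-O1 and control 2 for RT1-T24-4/T24-2. No array was the extreme throughout: noise arrays 2, 3 and 4 were the highest of the 6 for 5, 11 and 8 RT1 clusters and the lowest for 8, 9 and 5, while control arrays 1, 2 and 6 were the highest for 3, 8 and 8 and the lowest for 8, 9 and 4. The mean over RT1 clusters was 4.67, 4.72 and 4.70 on the noise arrays and 4.64, 4.65 and 4.67 on the control arrays.

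**Figure D4:**
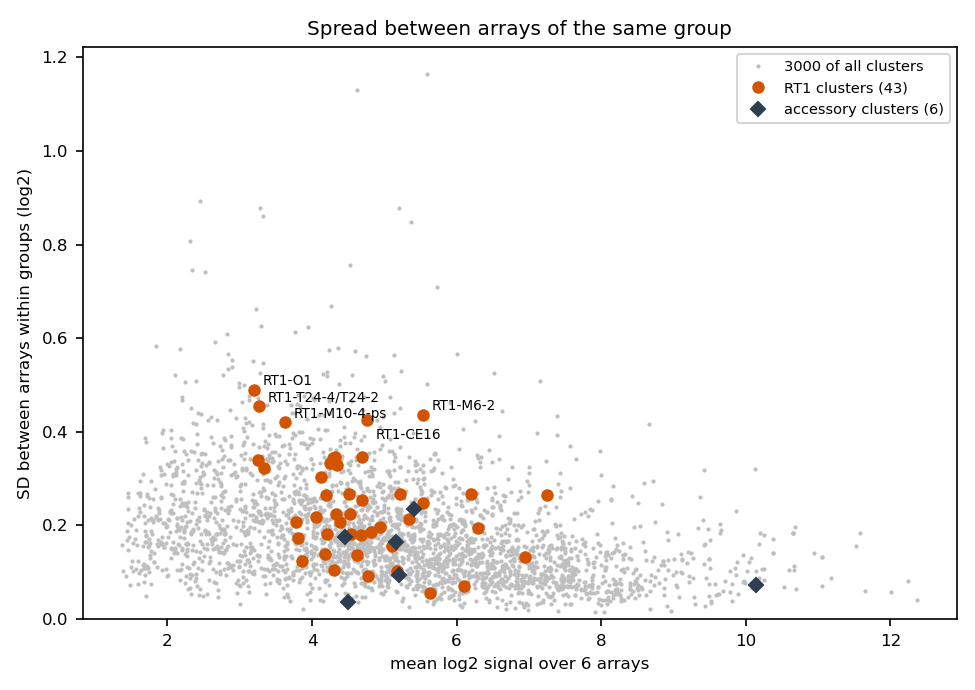
SD between arrays within groups (log2) against mean log2 signal over the 6 arrays for RT1 clusters (orange), accessory clusters (dark diamonds) and a random sample of all clusters (grey). RT1 clusters lie mostly at low signal, and 12 of the 43 lie above the all-cluster 90th percentile of 0.322.

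Genes that make, load, regulate or read MHC molecules were also counted, 157 list entries with cell type markers included, of which 149 matched a cluster. Of the 74 clusters in the pathway lists, 5 were higher (6.76%) and 5 were lower (6.76%) by the unadjusted p, shares near the 5.03% and 5.10% of all clusters. In the immunoproteasome, which cuts peptides for class I, 0 of 5 genes passed the thresholds and the median was 0.14; Psmb8, a catalytic subunit encoded beside Tap1, passed the unadjusted threshold at -0.26 (adjusted p = 0.46 from limma). In the list of chaperones and trimming enzymes of class I loading, 0 of 8 passed and the median was -0.01. Among 15 regulators of MHC transcription, 0 passed and the median was -0.06. Nfkb1, a subunit of the NF-kappaB factor that binds enhancer A, was at 5.35, 5.31 and 5.54 in the noise group against 5.80, 5.93 and 5.88 in the control group. Its groups were well apart (log2 -0.47, adjusted p = 0.33 from limma), and it passed the unadjusted p but not the fold threshold. Irf2, a factor of interferon response elements, did the same at -0.26 (adjusted p = 0.45 from limma).

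Of 6 class II peptide-handling genes measured, 0 passed the thresholds; Ifi30, a thiol reductase of antigen processing, passed only the unadjusted p, at 0.49 (adjusted p = 0.44 from limma). Of 17 clusters of receptors for MHC molecules, 1 was higher and 0 were lower at the thresholds. That cluster, Klrc2/Klrc3, encodes NKG2-type receptors of natural killer cells and was at 2.86, 3.36 and 3.03 in the noise group against 2.57, 2.20 and 2.42 in the control group. It rose with no overlap between groups (log2 0.69, adjusted p = 0.33 from limma), at a signal far below the array median. Klrc3 also has a cluster of its own, which was at 2.67, 2.55 and 2.69 in the noise group against 2.71, 3.20 and 2.91 in the control group. All its noise arrays were lower and it passed neither threshold (log2 -0.30, adjusted p = 0.51 from limma), while Klrc1, another NKG2-type receptor, had 0.01. Of 18 interferon-induced genes, 1 was higher at the thresholds and 0 were lower, against 0.580% and 0.882% of all clusters. The list median was 0.01. The higher gene was Oas1b, an antiviral enzyme (log2 0.71, adjusted p = 0.35 from limma). It averaged 3.84 in the noise group and 3.13 in the control group, below the array median. Oas1a, also on the list, had 0.06. Ifng, the interferon that induces Ciita, also passed only the unadjusted p, at 0.37 (adjusted p = 0.43 from limma); it averaged 4.52 in the noise group and 4.15 in the control group, both below the array median.

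The tissue was checked against cell type markers. Of 8 markers of hippocampal neurons, 7 had means above the array median and 0 passed the thresholds. Among 12 microglia markers 0 passed and the median was 0.08, with summed linear signals of 1140 to 1321 on noise arrays and 1183 to 1226 on control arrays. C1qb, a complement subunit made by microglia, had 0.25 and passed only the unadjusted p (adjusted p = 0.45 from limma). No marker passed both thresholds among 6 of perivascular macrophages, 8 of dendritic and B cells, 7 of T and natural killer cells, 5 of endothelium, 5 of astrocytes and 5 of oligodendrocytes. The endothelial markers had a median of -0.10, and their summed signal was 367 to 400.1 on noise arrays against 408 to 424 on control arrays, with no overlap. The part of endothelium in the RT1 values was not tested.

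Markers of neighbouring tissue did differ. Of 10 markers of choroid plexus epithelium, 8 were lower in the noise group at the thresholds, against 0.882% of all clusters. The 10 markers had a median of -1.96. Their summed signal was 1346 to 1595 on noise arrays against 2326 to 8001 on control arrays. Their mean was 5.44, 5.20 and 5.67 on noise arrays 2, 3 and 4 against 8.20, 7.56 and 6.18 on control arrays 1, 2 and 6. Of 8 markers of thalamus and habenula, 5 were lower, with a median of -0.71 and sums of 391 to 449 on noise arrays against 512 to 740 on control arrays. The part of this tissue in the RT1 values was not tested; the fits without control arrays 1 and 2 are given above. These lists had been chosen with earlier results of the same arrays known.

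**Figure D5:**
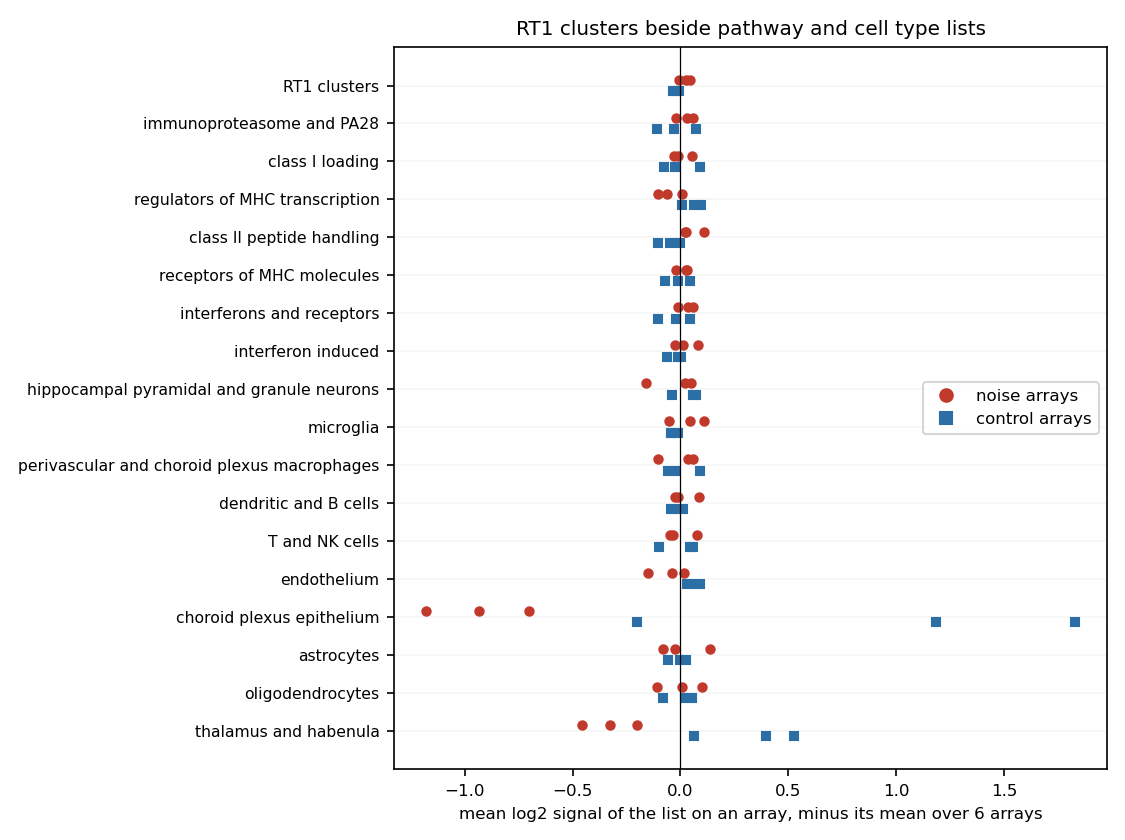
Mean log2 signal of each list on each noise array (red circles) and control array (blue squares), minus the mean of the list over the 6 arrays. Choroid plexus and thalamus and habenula markers spread furthest from 0, with noise arrays below control arrays; endothelium and regulators of MHC transcription also have all noise arrays lower and class II peptide handling all higher, by smaller amounts.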

How the data were processed

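Total RNA of 6 pools was hybridised to Rat Gene 2.0 ST arrays (Affymetrix). Per the methods, the authors used the Robust Multi-Array Average in GeneSpring GX, which corrects background, takes log2 and summarizes probes into transcript clusters. These deposited log2 values were used unchanged from the left-hand columns of the authors' workbook; the series' value table held the same values to within 8.9e-16. The genome build is not given in the sources used here. The authors also deposited group means, fold changes and p-values of their own comparison, and lists of clusters selected by it; none was used.

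Each of the 29489 clusters was tested in limma 3.58.1 (R 4.3.3; lmFit and eBayes, noise minus control, group as the only term), with Benjamini-Hochberg adjustment over all clusters. Calls needed both a 1.5-fold change and an unadjusted p no higher than 0.05. No filter on dim clusters was applied. A plain comparison over 3 arrays against 3 used the exact permutation test. The fit was tested on simulated data with known planted changes. Each was larger than any change among the members, so that test does not cover changes of the sizes seen in members. Precision is limited by the number of arrays, and p-values measure the spread between pools. RefSeq tables of assembly GRCr8 gave gene order, synonyms and promoter windows, which were aligned in pairs with Biopython 1.88; 43 of 45 distinct RT1 symbols were in them.

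Members and lists were chosen with earlier results of these data known. Named were the 6 accessory genes, RT1 clusters with non-overlapping groups, the 3 brightest of each class and the 5 most variable. The 3 RT1 clusters of smallest p in each direction were named too. From the pathway and marker lists, only some genes past the thresholds or of small p were named. Markers of choroid plexus, thalamus and habenula were counted without naming single genes. Other clusters are named to complete a gene family. Alternatives were the series' value table, renewed quantile normalization, median centring, an intensity trend, array weights, a filter on dim clusters, the methods' t-test, no fold threshold, the brightest cluster per symbol, leaving out each array, and leaving out control arrays 1 and 2 together. Leaving out clusters with several symbols, and applying the alternatives to the count at an unadjusted p, were chosen after seeing the data.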

Additional observations from a re-analysis of the deposited data

How the results depend on the processing

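The counts of RT1 and accessory clusters at the thresholds were 0 in both directions under every alternative with a fold threshold; without one, 3 members were higher and 0 lower. The count of members higher at an unadjusted p of 0.05 lay between 3 and 4 when each array was left out. That count was 1 (RT1-T18) when clusters with several symbols were left out. The other clusters past that p with all arrays, RT1-CE5/CE4 and the class I cluster of the largest change, carry several symbols. Both were therefore themselves left out. The count lower at that p lay between 0 and 1 when each array was left out: RT1-A1 was lower without control 6 (log2 -0.47, adjusted p = 0.51 from limma) and RT1-CE7 without noise 3 (log2 -0.33, adjusted p = 0.56 from limma). Without both control arrays 1 and 2 it was 1, RT1-N2/N1 (log2 -0.47, adjusted p = 0.98 from limma). The median log2 change over members lay between -0.011 and 0.050 when each array was left out. The cause of these changes was not tested.

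Among 653 values of single clusters under the alternatives, 632 kept their side of the threshold or moved by less than the spread between arrays, 11 moved further, all without both control arrays 1 and 2 (among them Cd74 at log2 0.23, RT1-Da at 0.10 and RT1-Ba at -0.06, each with its sign turned), 9 newly passed the unadjusted threshold and 1 no longer did (RT1-CE5/CE4, given above). RT1-M10-3-ps newly passed with the methods' t-test, RT1-N3 without control 2 (log2 0.39), without noise 2 (log2 0.37) or without both control arrays 1 and 2 (log2 0.51), RT1-Ha without control 6 (log2 0.31) and RT1-CE16 without noise 4 (log2 0.48). The 5-symbol class I cluster, RT1-CE5/CE4 and RT1-T18 stayed past the unadjusted threshold whichever single array was left out, with log2 differences of 0.36 to 0.57, 0.33 to 0.43 and 0.33 to 0.45.

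No paired analysis was made, since the array labels state no pairs and the paper compared the groups as independent samples. Signal over background was not measured, and for the many dim RT1 clusters shared probes and background limit what a change of signal says about a single gene.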

Other observations

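The genes given here passed the unadjusted p in limma but not the fold threshold. Over the pathway lists, 5 of 74 clusters passed that p in each direction (6.76%), near the share of the whole array (5.03% higher and 5.10% lower). Mx1, an antiviral GTPase induced by interferons, was at 3.94, 3.49 and 3.48 in the noise group against 3.32, 3.34 and 3.21 in the control group (log2 0.34). Irgm, an interferon-induced GTPase of another family, was at 4.89, 4.64 and 5.01 in the noise group against 5.21, 5.04 and 5.45 in the control group (log2 -0.39). The groups did not overlap in either gene, and the signs were opposite. Tfrc, the transferrin receptor, which partners the class I-like protein Hfe, was at 7.16, 7.22 and 7.12 in the noise group against 7.63, 7.39 and 7.44 in the control group (log2 -0.32). From the cell type lists, Bhlhe22, a transcription factor of hippocampal neurons, had a log2 difference of -0.29, and Cdh5, the cadherin of endothelial junctions, had -0.25. Adjusted p-values in limma of the 5 genes named in this paragraph were all between 0.40 and 0.48.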
